A study of Rattus norvegicus with 2 samples.

Results

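miR-21 is 1 of the 350 rat microRNAs (miRNAs) on an Agilent array that was hybridised with RNA from rat tongue. Its rows were found by the name rno-miR-21 among the spots that are not controls, which gave 2 probes with 10 spots each on every array. The study set squamous cell carcinoma of the tongue against normal tongue. The animals were male Sprague-Dawley rats, 6 to 7 weeks old at the start, per the labels. One arm of 20 was given 4NQO, a chemical carcinogen, dissolved at 0.02 g/l, the other arm of 20 only distilled water, and tissue was taken at the end of week 36. RNA was extracted from 7 tumours and 7 normal tongues. The data are 2 arrays, 1 with the label tumour and 1 with the label normal, and the sources used here do not say whether an array held RNA of 1 rat or of several. With 1 array per group no test between the groups was possible, and every error below comes from the spots of a single array.

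miRNAs are short RNAs that guide Argonaute proteins to messenger RNAs through a seed near their 5′ end, and so lower the output of those messengers. miR-21 is made from a hairpin whose primary transcript overlaps or follows the gene Vmp1, and its transcription can be induced by STAT3 and AP-1. Its known targets include the tumour suppressor Pdcd4, and it is among the miRNAs most often raised in carcinomas, oral carcinoma included. It is made by many cell types, among them keratinocytes, fibroblasts and leukocytes.

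The sequences show which part of miR-21 the array reads. They come from RefSeq (rat build GRCr8) for the miRNA and from the array files for the probes. The hairpin lies at chr10:71902600-71902691 on the minus strand. In the RefSeq gene table it overlaps neither neighbour, the protein-coding genes Vmp1, on the same strand, and Tubd1. In the mature strands below the capitals mark the seed, bases 2 to 8, and in the hairpin they mark the mature miR-21 strand.
rno-miR-21-5p: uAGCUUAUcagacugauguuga
rno-miR-21-3p: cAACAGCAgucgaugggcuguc
Mir21 hairpin: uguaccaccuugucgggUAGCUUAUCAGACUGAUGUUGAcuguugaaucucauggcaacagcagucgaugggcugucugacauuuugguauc
The array's rno-miR-21 is the 5p strand, since both of its probes pair without a mismatch to that strand. Among the 724 mature rat miRNAs in the RefSeq table, 1 has this seed, miR-21-5p itself, so no seed relative was available for comparison. The letters CAGAC, which SMAD proteins are known to recognise in some miRNA hairpins, occur 1 time in the Mir21 hairpin, at bases 9 to 13 of the mature strand. The same letters were found in 34 of 419 rat hairpins (8.11%), on the hairpin's own strand alone because the hairpin is RNA.

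The probes of miR-21 differ by 1 base, shown as a capital at the 3′ end of the longer one.
20-base probe: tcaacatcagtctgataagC
19-base probe: tcaacatcagtctgataag
The 20-base probe pairs with bases 3 to 22 of miR-21 and the 19-base probe with bases 4 to 22. They therefore cover 6 and 5 of the 7 seed bases, and leave out only the first bases at the 5′ end of miR-21. The longest run of letters that the longer probe shares with a probe of any other miRNA is 9 bases, in a probe of miR-541. Shared runs were compared by exact letters only, and cross-hybridisation was not measured.

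miR-21 was far brighter on the normal-labelled array, with both probes, before any scaling. On the tumour-labelled array, the spots of the 20-base probe ran from 1399.8 to 1586.5 processed intensity units with a median of 1501, and their mean was 1499 ± 62.7 (SD over 10 spots). On the normal-labelled array the same probe ran from 6537 to 7552 with a median of 7281, and the mean was 7242 ± 311 (SD over 9 spots). A spot at 6264 was left out there because the software had marked it as an outlier; it too lay above every spot of the tumour-labelled array. The dimmest retained spot of the normal-labelled array was 4.12 times the brightest of the tumour-labelled array.

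The shorter probe gave the same picture at a lower level. Its spots ran from 328.6 to 349 on the tumour-labelled array, with a median of 339 and a mean of 340.4 ± 6.66 (SD over 10 spots). They ran from 1758 to 1849 on the normal-labelled array, with a median of 1806 and a mean of 1808 ± 29.3 (SD over 10 spots). The dimmest spot of the normal-labelled array was 5.03 times the brightest of the tumour-labelled array, so for neither probe did the arrays overlap. Arrays of this design carry the same probe at the same grid position. At all 19 positions with a retained spot on both arrays the tumour-labelled array was dimmer, which the lack of overlap already fixes. The difference by position ran from 4.50-fold to 5.47-fold with a median of 5.08-fold.

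**Figure D1:**
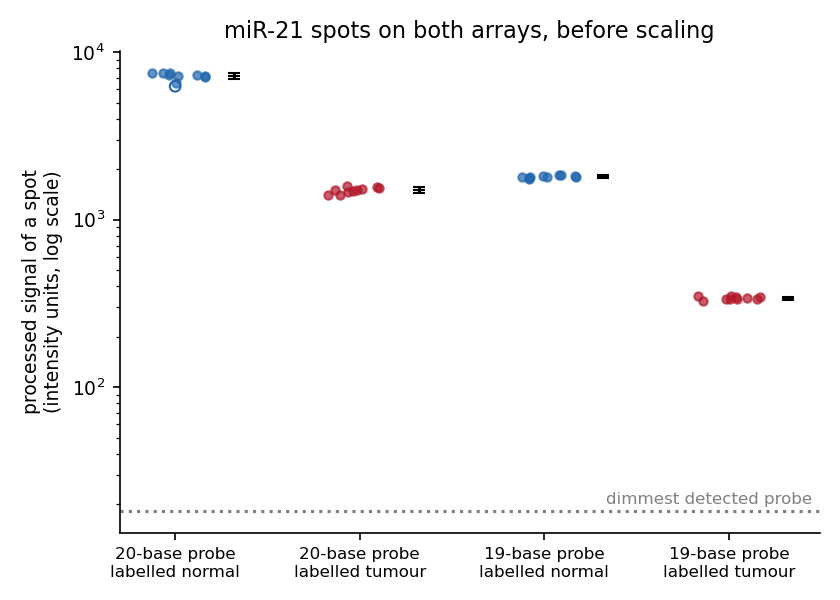
Processed signal of each miR-21 spot (intensity units, log scale, before scaling) for the 20-base and the 19-base probe on the normal-labelled array (blue) and the tumour-labelled array (red); bars give the mean and SD over retained spots, the open circle is the spot marked as an outlier, and the dotted line is the dimmest detected probe. The 20-base probe averaged 7242 against 1499 and the 19-base probe 1808 against 340.4.

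The signals were well inside the range that the array could measure. All 20 spots were well above background on each array, no spot was saturated, and the 20-base probe was the brightest of all 938 probes on the normal-labelled array. Negative control spots averaged 1.21 intensity units on the tumour-labelled array and 2.64 on the normal-labelled array. The mean spot signal of miR-21 before background subtraction was 30.5 and 7.76 times the background used for it on the tumour-labelled array (20-base and 19-base probe), and 139 and 35.8 times on the normal-labelled array. The CV over spots was 4.18% and 1.96% on the tumour-labelled array and 4.29% and 1.62% on the normal-labelled array, below the median CV of detected probes on the same array (5.20% and 6.33%).

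A difference of 1 pairing base went with a large difference in brightness. The 20-base probe was 4.40 times as bright as the 19-base probe on the tumour-labelled array and 4.01 times on the normal-labelled array, although both read the same RNA. A signal therefore ranks probes as well as RNAs, and brightness is not abundance. The unscaled difference between the arrays, labelled tumour minus labelled normal, was -2.27 on the log2 scale for the 20-base probe (spot SE 0.03) and -2.41 for the 19-base probe (spot SE 0.01). The probes thus differed by 0.14, more than their spot errors. Among the 55 miRNAs with more than 1 probe measured on both arrays the median such difference was 0.05 and the largest 0.33, and 9 of the 55 exceeded miR-21's. Both probes put miR-21 lower on the tumour-labelled array by well over 2-fold.

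The study's question for miR-21 is whether its level differs between carcinoma and normal tongue. Averaged over both probes, the unscaled signal was 5.07-fold lower on the tumour-labelled array (log2 ratio -2.34). Other measures of signal differed in the opposite direction, by unlike amounts. The median of 19 positive control features was 2526 on the tumour-labelled array and 2158 on the normal-labelled array (log2 0.23). The 75th percentile of the 140 probes detected on both arrays, where detected means that more than 50% of a probe's spots were well above background, was 525.6 on the tumour-labelled array and 277.5 on the normal-labelled array, a ratio of 1.89 (log2 0.92). Dividing each array by that percentile widened the difference. The scaled level of miR-21 was 1.36 on the tumour-labelled array and 13.0 on the normal-labelled array, with 1 standing for that percentile, and the ratio became 9.60-fold lower (log2 ratio -3.26, spot SE 0.02). The single probes gave 9.15-fold and 10.1-fold. With the skeletal muscle miRNAs left out of the percentile, the log2 ratio was -2.90. To make miR-21 equal on both arrays, the tumour-labelled array would have to be brightened 5.07-fold, whereas the scaling dims it relative to the other array.

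How far miR-21 stood from the other miRNAs does not depend on a common scaling factor. Of the 85 miRNAs measured on both arrays, miR-21 had the second lowest ratio: 83 of the 84 others were higher and 1, miR-31, was lower. Its scaled ratio lay -2.80 from the median of all 85, which was -0.46. At least 2-fold lower on the tumour-labelled array were 19 of the 85, or 22.4%, and at least 2-fold in either direction were 30, or 35.3%. Without scaling the median was 0.46, and 5 of 85 (5.88%) were at least 2-fold lower, miR-21 among them. The lower count was 7 with the 75th percentile over all probes, 8 with normexp (11 in either direction) and 9 with no background subtraction (14 in either direction), and miR-21 was at least 2-fold lower in each. These are counts by size, not by a test.

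The next brightest miRNAs of the normal-labelled array did not share the difference. The brightest of the tumour-labelled array, miR-1 and miR-133b, differed the other way, at 3.72 and 2.66 after scaling. miR-21 had the highest mean scaled level of both arrays among the 85. The 10 next brightest measured miRNAs of the normal-labelled array had scaled log2 ratios from -1.04 (miR-205, an epithelial miRNA) to 0.11 (let-7a, of a family found in most differentiated tissues), with a median of 0.02, against -3.26 for miR-21. Without scaling these 10 ran from -0.12 to 1.03, against -2.34. Within an array, the signal of miR-21 was 0.652 times that of let-7c on the tumour-labelled array and 6.33 times on the normal-labelled array. Against miR-23a, a miRNA of many tissues, it was 0.613 times and 5.99 times. These quotients use no scaling; their change between the arrays shows unequal change, while each quotient alone also reflects the probes.

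**Figure D2:**
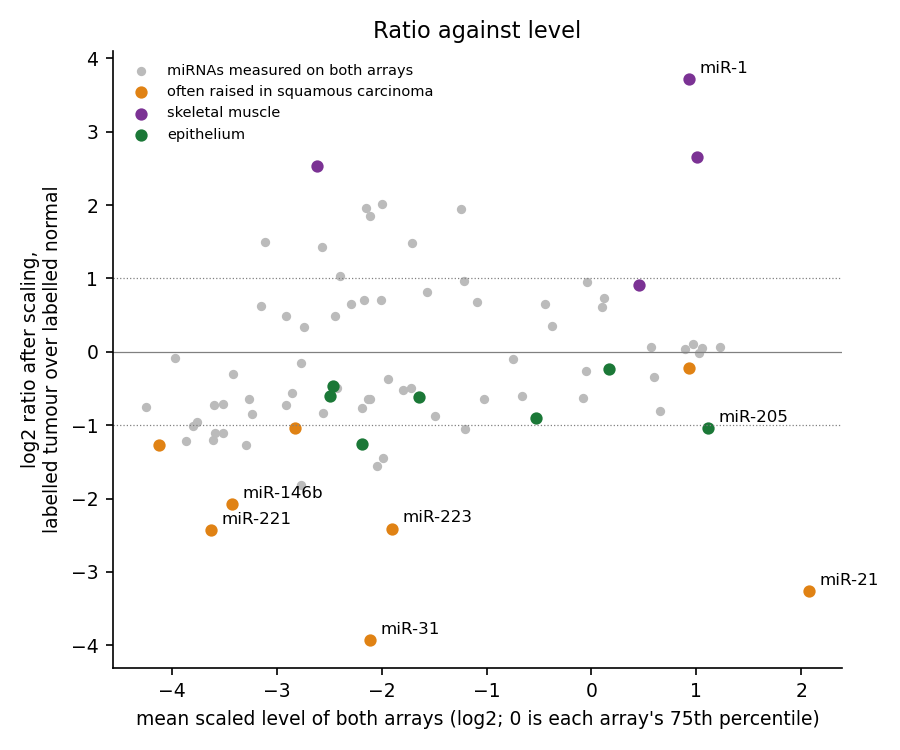
Scaled log2 ratio, labelled tumour over labelled normal, against the mean scaled log2 level of both arrays for the 85 miRNAs measured on both. Colours mark the squamous carcinoma list, the skeletal muscle miRNAs and the epithelial miRNAs only, and dotted lines a 2-fold difference. miR-21 is the point farthest to the right, at a ratio of -3.26, and miR-31 alone is lower.

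The place of miR-21 in each profile changed accordingly. By mean probe signal it was the brightest of 350 miRNAs on the normal-labelled array, at 4525 intensity units. miR-205, a miRNA of stratified epithelium, was second there at 903, which is 5.01-fold dimmer, followed by miR-23a at 755.5. On the tumour-labelled array miR-21 was 12th, at 919.7 units. The leading miRNAs of that array were miR-1 (4717) and miR-133b (3963), both of striated muscle, and miR-23a (1500.1). Next to miR-21 on that array stood miR-22 (995), miR-24 (946), miR-29a (895) and miR-205 (836), all within 2 ranks. miR-21 was still among the bright miRNAs there, at 11.7 times the median detected miRNA on the tumour-labelled array and 80.1 times on the normal-labelled array.

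**Figure D3:**
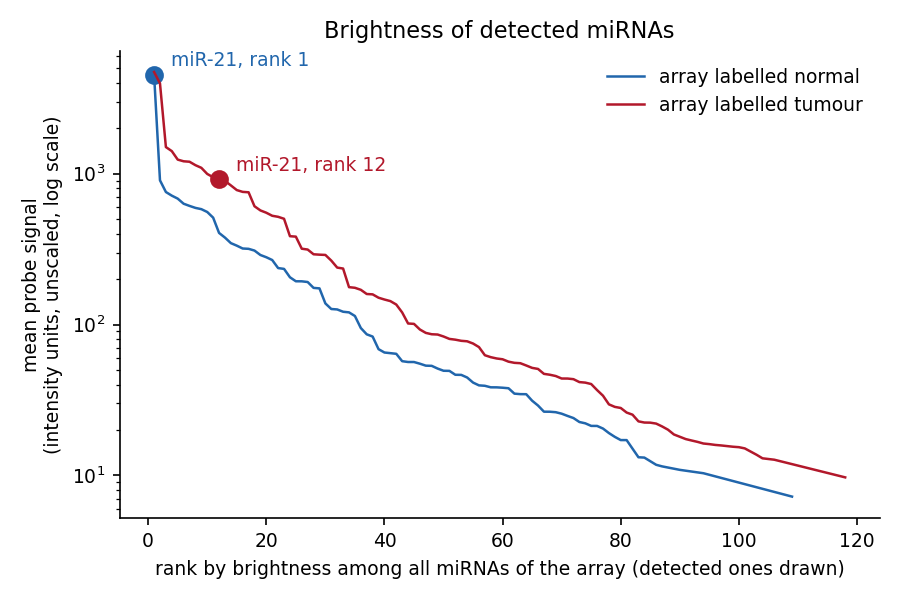
Mean probe signal (intensity units, unscaled, log scale) of detected miRNAs against their rank among all 350 miRNAs, for the normal-labelled array (blue) and the tumour-labelled array (red). miR-21 is first at 4525 on the normal-labelled array, with a 5.01-fold step to the next miRNA, and 12th at 919.7 on the tumour-labelled array.

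As a share of all miRNA signal, summed over probes with values below 0 set to 0, miR-21 gave 23.5% on the normal-labelled array and 2.60% on the tumour-labelled array, a 9.06-fold difference. With normexp background correction, whose offset of 50 adds signal to every dim probe, the shares were 9.69% and 1.55%. The miRNA probes other than those of miR-21 summed to 2.35 times as much on the tumour-labelled array, against 1.84 times with miR-21 included. The skeletal muscle miRNAs took up much of the total on the tumour-labelled array: the 6 on the array gave 28.1% there and 4.38% on the normal-labelled array. With these left out of the total, the share of miR-21 was 3.61% on the tumour-labelled array and 24.6% on the normal-labelled array. Shares are of signal, and a miRNA with brighter or more probes weighs more in them. In whole tissue, fewer cells that make miR-21 and less miR-21 per cell cannot be told apart.

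The passenger strand, named miR-21* by the array and miR-21-3p by RefSeq, was not detected. It comes from the other arm of the same hairpin and is usually degraded. Its 4 probes, of 12 to 15 bases, had 5 spots each, and 0 of them were well above background on either array. The highest probe mean was 1.35 intensity units on the tumour-labelled array and 9.16 on the normal-labelled array, both for the 15-base probe, while the dimmest detected probes were at 18.3 and 18.2. No ratio is given for it, since both arrays were below the limit.

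Measured miRNAs with the ratio nearest to that of miR-21, by absolute difference on the scaled log2 scale over these 2 arrays, were miR-31, miR-221, miR-223, miR-146b and miR-142-3p. miR-31, a miRNA of keratinocytes that is often raised in oral carcinoma, was 0.66 lower than miR-21, at -3.93 (spot SE 0.03, 2 probes). Its scaled level was 0.0592 on the tumour-labelled array and 0.900 on the normal-labelled array. miR-221, at -2.43, lay 0.83 above miR-21 but rests on 1 probe and a scaled level of 0.0347 on the tumour-labelled array, the lowest detected there. miR-223, a miRNA of neutrophils and other myeloid cells, was at -2.41 with 2 probes. miR-146b, which is linked to NF-kB signalling, was at -2.07, and the blood cell miRNA miR-142-3p at -1.82, with 1 probe each. miR-31 and miR-221 were the nearest on either side, and with 2 arrays a near ratio says only that the sizes are similar.

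A list of 9 miRNAs linked to inflammatory, AP-1 or STAT3 signalling, miR-21 included, was set beside all 85 measured miRNAs, its own members among them. Of its 8 members on the array 5 were measured on both. All 5 were at least 2-fold lower on the tumour-labelled array (4 of 4 without miR-21), against 22.4% of all 85. The 5 were miR-31, miR-21, miR-221, miR-146b and miR-146a, the last at -1.04 but -0.12 without scaling. The median of the 5 was -2.43 (-2.25 without miR-21), against -0.46 over all 85. Without scaling 4 of the 5 were at least 2-fold lower, against 5.88%. miR-132, miR-181b and miR-222 were detected on neither array.

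In a second list, of 18 miRNAs often raised in squamous cell carcinoma of the mouth, head and neck, 17 were on the array and 8 were measured on both. Of the 8 measured, 7 had a ratio at least 2-fold down on the tumour-labelled array (6 of 7 without miR-21), against 22.4% of all 85 miRNAs. The median was -2.24, or -2.07 without miR-21. Without scaling 5 of the 8 were at least 2-fold lower, against 5.88% of all 85. List members are counted in both shares, and the 5.88% consists of the same 5 miRNAs. Besides members already named, those lower after scaling held miR-7a (-1.27, but -0.35 without scaling, 1 probe). Its scaled level on the tumour-labelled array, 0.0370, was near the dimmest detected there. The measured member that was not 2-fold lower was miR-24, at -0.22 after scaling and 0.70 without it. Detected on neither array were 9 of the 17. The lists share 8 members, of which 5 were measured, so they are not separate evidence, and both were drawn up with earlier results of these arrays known. A direction opposite to what is usually reported for miR-21 in oral carcinoma holds only as far as the array labels do.

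miRNAs that mark cell types of the tongue differed between the arrays by unlike amounts. Of 6 skeletal muscle miRNAs 4 were measured on both arrays and all 4 were higher on the tumour-labelled array, from 0.91 for miR-206 to 3.72 for miR-1. At least 2-fold higher after scaling were 3 of the 4, against 11 of all 85 measured miRNAs. Without scaling it was 4 of the 4, against 28 of the 85. miR-208, which belongs to heart muscle, and miR-499 were detected on neither. All 7 epithelial miRNAs were measured. They lay between -1.26 and -0.24 with a median of -0.61, and without scaling the median was 0.31. Over all 85 these medians were -0.46 and 0.46, so the epithelial miRNAs as a set lay near the general shift. miR-205 was at -1.04 and miR-203, a keratinocyte miRNA, at -0.24. The signal of the epithelial miRNAs summed to 4135 and 3710.1 intensity units on the tumour-labelled and normal-labelled arrays, while that of the muscle miRNAs summed to 19877 and 1682. The tongue's muscle and epithelium were thus visible on both arrays.

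Markers of leukocytes and stroma lay on both sides of 0. Of the leukocyte miRNAs 3 of 4 on the array were measured: miR-223 and miR-142-3p were lower, as given above, and the lymphocyte miRNA miR-150 was higher at 1.43. Their signals summed to 353 on the tumour-labelled array and 491 on the normal-labelled array. Of 5 stromal miRNAs 4 were measured, from -1.56 for miR-199a-5p to 0.82 for miR-143, a miRNA of smooth muscle, with a median of -1.02 that was -0.10 without scaling. The endothelial miR-126 was at 0.68 and the erythroid miR-451 at 1.04, and the nerve miRNAs miR-9 and miR-124 were detected on neither array. The ratio of miR-21 lay below that of every measured miRNA in these marker lists. The part of the cell types in the difference of miR-21 was not tested.

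The size of the difference moved with the processing while its direction did not. Over 21 other settings the log2 ratio of miR-21 ran from -3.43 (quantile normalization of all probes) to -2.34 (no scaling), that is from 10.8-fold to 5.07-fold lower. It was below 0 and at least 2-fold lower in all 21. In 19 of them miR-21 had the second lowest ratio of the measured miRNAs, and in 2, normexp background correction and the mean signal with no background subtraction, the lowest. Several of the 19, such as no scaling and the positive control features, change only a common factor, which cannot alter this rank. Leaving out the filter on dim probes could not change the ratio of miR-21 itself. The brightest probe and the longer probe alone are the same measure of miR-21, as are the total gene signal and the deposited value table. The 21 settings are therefore not separate checks. With the 19 positive control features that were well above background on both arrays as the scale it was -2.57, and with the skeletal muscle miRNAs left out of the percentile -2.90.

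**Figure D4:**
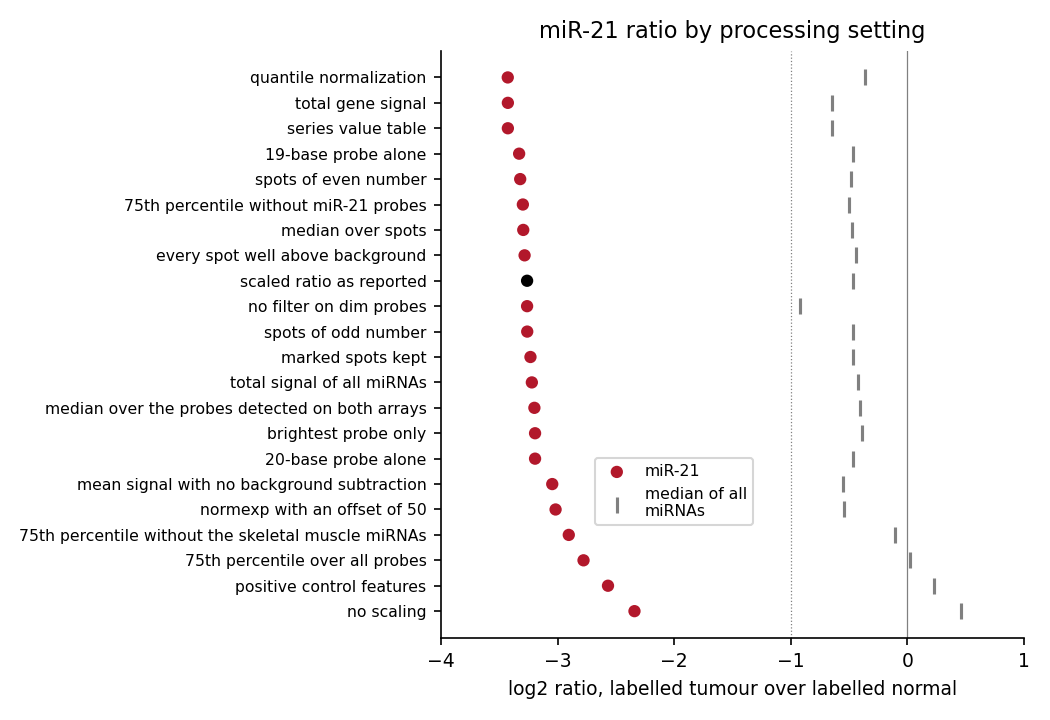
Log2 ratio of miR-21, labelled tumour over labelled normal, under each processing setting (red; black is the scaled ratio reported in the text), with the median ratio of the miRNAs measured in that setting, or of all 350 with no filter (grey bars); the dotted line marks 2-fold lower. All settings put miR-21 between -3.43 and -2.34. The median of the measured miRNAs ran from -0.64, with the total gene signal, to 0.46, with no scaling. With no filter the median was -0.92. It reflects the value that dim probes were set to on each array, since 243 of the 350 were detected on neither array.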

How the data were processed

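Per the file headers, each array was scanned in 1 colour and its intensity values are output of Agilent Feature Extraction, version 10.5.1.1, with background subtraction and spatial detrending; they were deposited without normalization between arrays. The labels name a labelling kit meant for messenger RNA and do not describe the labelling of miRNA. The deposited value table equals the software's total gene signal for all 208 and 201 features above 1 (relative difference under 1e-06; column medians 1.70 and 1.32), and features below 1 were set to 1. Flags of the software, 0 or 1 as deposited, marked outlier, saturated and well-above-background spots.

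Spots not marked as outliers were averaged per probe, on 7000 spots for 938 probes. For scaling, the signal was divided by the 75th percentile, within that array, of probes detected on both. Values below the dimmest detected probe of an array were set to it, and all were put on the log2 scale. A miRNA is the mean of its probes detected on both arrays. On the tumour-labelled array 175 probes were detected and on the normal-labelled array 149; the number of arrays limits the precision. Named miRNAs are miR-21, the 5 with the nearest ratio, the 3 brightest per array, those within 2 ranks of miR-21 and measured members of the lists; list members detected on neither array are named only as such, and let-7a, let-7c and miR-541 were singled out after their values were seen. The member and the lists were chosen with earlier results of these data known. Alternatives used limma 3.58.1 (normexp, offset 50) and Python 3.11.15. The steps were tested on simulated data. That test first removed the median error of the unchanged miRNAs, so it did not test the scaling.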

Additional observations from a re-analysis of the deposited data

How the results depend on the processing

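No paired analysis was possible because each group has 1 array. The spread against which a change of the miR-21 ratio was judged is the SD of single spots, 0.06 on the log2 scale, so that 13 of 21 alternatives moved it and 8 did not, and none reversed it. Some of the 21 give the same value by construction, so these counts are not of separate checks. The moved log2 ratios were -2.34 with no scaling, -2.57 on the positive control features, -2.78 with the 75th percentile over all probes, -2.90 without the skeletal muscle miRNAs, -3.02 with normexp, -3.05 with no background subtraction, -3.19 with the brightest or the 20-base probe, -3.20 with the median, -3.33 with the 19-base probe, and -3.43 with quantile normalization, the total gene signal or the deposited value table. The count of miRNAs at least 2-fold apart, 30, became 11 with normexp and 14 with no background subtraction. Over 19 alternatives 4 to 5 members of the signalling list and 5 to 7 of the carcinoma list were at least 2-fold lower. The share of miR-21 on the normal-labelled array was 24.4% over detected probes and 9.69% with normexp, whose offset adds signal to every dim probe; on the tumour-labelled array it was 1.55% with normexp. With the brightest probe of each miRNA, miR-21 was 11th on the tumour-labelled array. The split of higher and lower calls was 11 and 19 after scaling and 28 and 5 without it.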
